A study of Drosophila melanogaster with 2 samples.

Results

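The 9 dorsoventral patterning genes sog, dpp, tld, tsg, scw, brk, rho, zen and dl were followed through a map of where a tagged protein sat on the genome of Drosophila melanogaster embryos. They were taken as a named list from 13945 protein-coding genes of the 6 major chromosome arms. A peak was given to a gene when its summit lay inside the gene, or when the nearest transcription start site (TSS) of any gene belonged to it. Weaker peaks were then counted within 10 kb of each gene's ends. The tagged protein was CG10959 fused to eGFP, in strain CG10959-GFP. Whole embryos, 0 to 8 h old, gave the chromatin, which was pulled down with anti-GFP and sequenced. Both libraries belong to 1 group, biological replicates 1 and 2 of that strain, with 1 donor label in common and no second genotype, treatment or age. The sources used here give neither the promoter that drives the fusion nor how many embryos were pooled.

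Dorsoventral patterning divides the early fly embryo into mesoderm, neurogenic ectoderm, dorsal ectoderm and amnioserosa. A nuclear gradient of the Rel protein Dorsal, highest on the ventral side, activates some genes and represses others. On the dorsal side a gradient of bone morphogenetic protein (BMP) activity forms, as an antagonist made laterally carries the ligands and a protease releases them. Several of these genes are known for enhancers that lie in introns or upstream, away from the promoter.

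The main list was the authors' pooled list past their threshold on the irreproducible discovery rate (IDR), and held 3434 peaks, 3417 of them on the 6 arms. Before thresholding, the pooled ranked list held 148346 peaks, and the replicates' own ranked lists held 132205 and 136173. Replicate 1 had 2065 peaks past the threshold and replicate 2 had 2341. Signal is the authors' value for a peak's strength over a control, in units the sources used here leave unstated, and the score is their IDR turned into a whole number with 1000 as its highest value. The lowest score in the main list was 830, an IDR of 0.01. Read depth is unknown. In whole embryos, strong binding in few cells and weak binding in many cannot be told apart. With 1 group there is no contrast to test, so all that follows is description.

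Of the 9 genes, 5 had a main-list peak by the rule, and together they had 11. The antagonist gene sog had 5, the repressor gene brk had 3, and the ligand genes dpp and scw and the protease gene rho had 1 each. The genes tld, tsg, zen and dl had none. Among all protein-coding genes 17.2% had such a peak. With promoters taken as 500 bp either side of a TSS, 1 of the 11 peaks lay at a promoter. The other 10 lay in an intron of the gene itself or of a gene around it. Among all main-list summits 39.1% lay at promoters and 35.2% in introns. The count rests on that limit, as 1 brk summit and the rho summit lay 695 and 801 bp from a TSS. With promoters of 1000 bp, 3 genes had a promoter summit. The 11 peaks were of middle to low strength, with signals from 83.9 to 152.1 and a median of 108.2. All main-list peaks had a median of 124.9.

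The sequence at 7 of the 11 summits is shown because these peaks carry the account of each gene that follows. Each run is the plus strand of dm6, from the RefSeq copy of that assembly, over the summit base and the 50 bases on each side. Capitals mark matches, on either strand, to the motifs described after the sequences, and a run with no capitals has no match. In the sog promoter window the capitals mark CGATA (written TATCG on this strand) and GAGAG (written CTCTC). In the brk window 6198 bp upstream they mark letters that match a Dorsal-type pair of half-sites with any bases between. In the other brk windows and in rho they mark A/T-only words. The regions, in the order of the lines, are chrX:15626408-15626508, chrX:15615594-15615694, chr2L:2433529-2433629, chrX:7307194-7307294, chrX:7302503-7302603, chrX:7301691-7301791 and chr3L:1464562-1464662.
sog at the inner TSS: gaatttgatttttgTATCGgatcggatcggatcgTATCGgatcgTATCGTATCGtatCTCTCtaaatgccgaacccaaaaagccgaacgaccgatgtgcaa
sog intron, strongest: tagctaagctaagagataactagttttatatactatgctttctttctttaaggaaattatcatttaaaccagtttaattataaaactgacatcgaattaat
dpp intron: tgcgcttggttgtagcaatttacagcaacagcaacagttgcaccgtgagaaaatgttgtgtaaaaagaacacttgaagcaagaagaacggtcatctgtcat
brk, 695 bp upstream: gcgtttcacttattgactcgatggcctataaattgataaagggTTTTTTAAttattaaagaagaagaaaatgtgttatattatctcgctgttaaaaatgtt
brk, 5386 bp upstream: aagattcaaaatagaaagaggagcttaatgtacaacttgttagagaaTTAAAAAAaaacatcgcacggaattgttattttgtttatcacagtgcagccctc
brk, 6198 bp upstream: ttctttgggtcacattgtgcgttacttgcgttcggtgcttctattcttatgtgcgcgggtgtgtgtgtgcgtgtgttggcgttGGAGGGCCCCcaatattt
rho intron: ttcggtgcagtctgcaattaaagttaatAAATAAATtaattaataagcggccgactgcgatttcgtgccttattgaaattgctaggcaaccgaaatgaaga

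Motifs were searched on both strands of these windows and of all 3417 main-list windows. CGATA, the core bound by the insulator protein BEAF-32, was in 1 of the 11 member windows, the sog promoter, where it occurred 4 times. It was in 12.6% of all windows, and in 10.6% of windows 300 bp to 1 side, that of lower coordinates. All shares to the side below are from that 1 side. GAGAG, the element of GAGA factor, was in the same sog window only among the 11, and in 10.6% of all windows against 15.6% to the side. GGGNNNNCC, a pair of Dorsal half-sites with any 4 bases between, was in the brk window 6198 bp upstream alone among the 11. It was in 5.27% of all windows against 6.53% to the side. The same pair with 5 bases between was matched there too, overlapping the first, and was in 4.36% of all windows against 5.79% to the side.

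The other letters searched were in none of the 11 windows. These were CAGGTAG, the box of the early activator Zelda (0.498% of all windows, 0.732% to the side), CACATG, a Twist-type E-box (4.04% and 5.56%), and CAGGTG, a Snail-type E-box (2.84% and 3.66%). GTGGGAA, a site of Suppressor of Hairless (0.644% and 1.64%), and GGTCACAC, the core of the promoter factor M1BP (0.439% and 0.498%), were the others. A match is a description of the letters in a window, and a window with none says only that these letters are not in it.

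The 10 words of 8 bases most enriched at all summits over that side were made of A and T alone. At least 1 of them was in 26.7% of all windows, in 12.3% of those to the side, and in 3 of the 11 member windows. The words were picked by their difference in these same windows, so the gap between 26.7% and 12.3% follows from the choice. These words overlap each other. TTAAAAAA, in 5.24% of all windows, was in the brk windows 5386 and 695 bp upstream, and AAATAAAT, in 6.06%, was in rho. The member windows had a median GC content of 36.6%, from 23.8% in the strongest sog peak to 51.5% in scw and in the brk window 6198 bp upstream, where all windows had a median of 34.7%.

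Among the BMP ligand genes, dpp encodes the main ligand of dorsal patterning and of many later tissues. Its gene spans 2L 2428372 to 2459823 on the plus strand (FBgn0000490). The single dpp peak lay at 2L 2433399 to 2433758 with a signal of 139.0 and a score of 1000. Its summit was 5207 bp downstream of the nearest dpp TSS, in the first intron of 1 of the 4 annotated transcripts, an intron of 26006 bp. Replicate 1 had a signal of 63.7 there and replicate 2 had 73.9. Both replicates' own lists held the peak with a score of 1000, so it was one of the 2 member peaks past the threshold in each library.

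The dpp region held a second, weaker main-list peak outside the gene. It lay at 2L 2420528 to 2420887, 7664 bp upstream of the dpp TSS and 122 bp from the TSS of CG9886. Its signal was 85.8 in the pooled list, 39.5 in replicate 1 and 49.1 in replicate 2, and neither replicate's list held it. At the dpp promoters the strongest ranked peak had a signal of 38.4 and a score of 218, under the threshold.

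scw encodes the ligand that pairs with Dpp in the early embryo. The gene is short, at 2L 19699379 to 19700968 on the minus strand (FBgn0005590), and lies inside Lar, a receptor tyrosine phosphatase gene. The peak given to scw was remote, at 2L 19713668 to 19714027, with its summit 12880 bp upstream in introns of Lar and CG46244. Its signal was 106.8, with 50.1 in replicate 1 and 55.1 in replicate 2. The replicates were close in signal, but their scores there were 717 and 40 and neither list held the peak. No main-list summit lay within 10 kb of scw, and its strongest ranked peak in that window had a signal of 58.2, weaker than the strongest of all but 10.1% of genes with a ranked peak.

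sog encodes the secreted antagonist that binds the ligands, the fly relative of vertebrate chordin. It covers X 15603283 to 15633434, minus strand (FBgn0003463), and has 2 annotated TSSs. All 5 of its main-list peaks lay inside it, 16.6 per 100 kb of gene. By comparison 0.409% of protein-coding genes had 5 or more peaks by the rule. sog is long, at 30152 bp, and among genes of 25 kb or more 4.94% had 5 or more summits inside and 50.0% had at least 1.

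Of the sog peaks, 4 lay in 1 intron of 10523 bp that all 3 transcripts share. The strongest, at X 15615464 to 15615823 and 10896 bp downstream of the nearest TSS, had a pooled signal of 152.1, with 69.5 in replicate 1 and 84.5 in replicate 2. The next, at X 15619331 to 15619690 and 7029 bp downstream, had 145.2, with 60.5 and 78.7. These are the highest 2 signals among the 11 member peaks, and both were past the threshold in replicate 2 only.

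The other intronic sog peaks were weaker. The one at X 15622875 to 15623234, 3485 bp downstream, had a pooled signal of 110.6, with 62.8 in replicate 1 and 54.8 in replicate 2, and only replicate 1's list held it. The one at X 15617899 to 15618258, 8461 bp downstream, had 96.5, with 55.1 and 48.2, and neither list held it. Neighbouring summits in sog were 1432 to 3544 bp apart, and the outermost were 10814 bp apart.

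The fifth sog peak, at X 15626278 to 15626637, was the only member peak at a promoter. Its summit was 82 bp downstream of the inner TSS, and in the first intron, of 6576 bp, of the 1 transcript that starts upstream. It was the weakest of the 11, with a pooled signal of 83.9 and a score of 954. Its replicates stood 2.66-fold apart, at 23.9 in replicate 1 and 63.6 in replicate 2, and it was absent from the conservative list. One further main-list peak lay in the sog window, at X 15594466 to 15594825, 8637 bp beyond the end of the gene and nearest to Chsy, a chondroitin synthase gene, with a pooled signal of 101.5, 44.1 in replicate 1 and 62.1 in replicate 2.

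**Figure D1:**
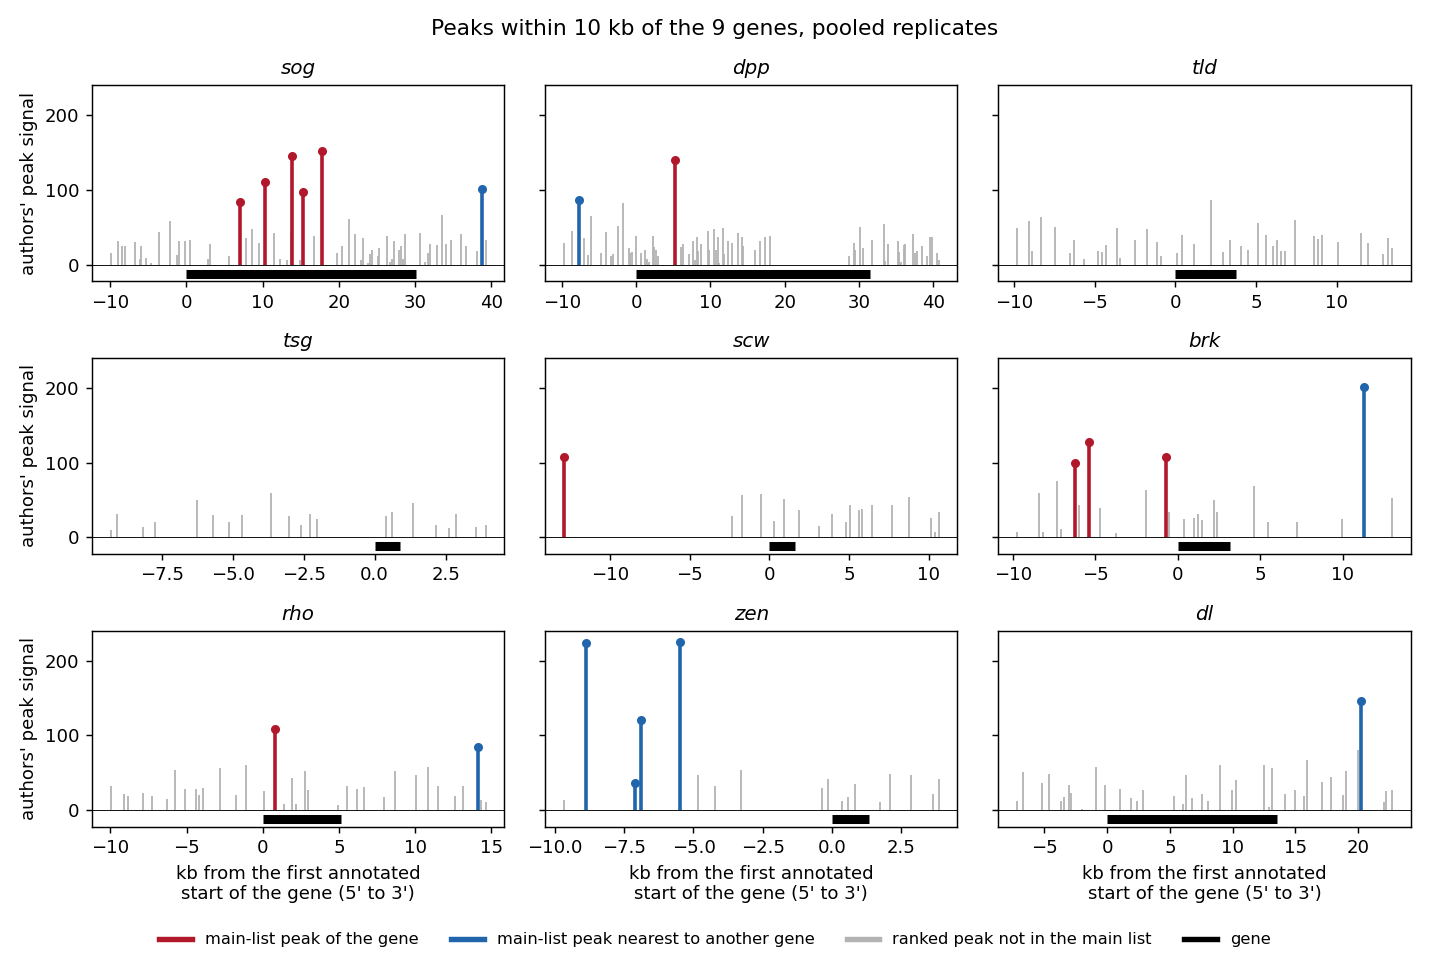
Peaks around the 9 dorsoventral patterning genes, with distance from a gene's TSS in kb along each horizontal axis and pooled signal on each vertical axis. The sog panel holds 5 main-list peaks inside the gene, from 83.9 to 152.1, while the tld and tsg panels hold ranked peaks only.

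In signal the replicates were alike at the strongest sog peaks, while the scores differed. At the peak of 152.1, replicate 1's signal of 69.5 was higher than that of 98.8% of the ranked peaks in its list, yet its score was 26, where replicate 2 had 1000. The peak of 145.2 had scores of 43 and 1000. Why score and signal parted there was not tested. By the threshold these peaks count as found in replicate 2 alone, while by signal they were near the top of both ranked lists.

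The product of tsg binds with Sog and the ligands, and that of tld is a metalloprotease that cleaves Sog and frees them. Neither gene had a main-list summit within 10 kb. tsg, at X 11988062 to 11988948 (FBgn0003865), had its nearest main-list summit 67790 bp from its TSS. The strongest of its 21 ranked peaks had a signal of 59.5, with 31.4 in replicate 1 and 30.3 in replicate 2, and 11.8% of genes had a weaker strongest peak.

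tld came close to the threshold. At 3R 24751752 to 24752111, in a coding exon of tld 2201 bp downstream of its TSS, a ranked peak had a pooled signal of 86.4 and a score of 800, just under the lowest main-list score of 830. Replicate 1 had a signal of 45.1 and replicate 2 had 33.4. Its signal was above the 83.9 of the sog promoter peak, which passed with a score of 954, so the order by signal and the order by score differ here. The tld gene (FBgn0003719) spans 3R 24749731 to 24753510, and its 41 ranked peaks amount to 17.2 per 10 kb, the densest of the 9 windows, where the median over protein-coding genes was 12.9.

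brk encodes the repressor that keeps Dpp target genes off in the lateral ectoderm. It covers X 7307939 to 7311132, plus strand (FBgn0024250), nested in introns of CG1677 and lncRNA:CR44357. Its 3 main-list peaks all lay upstream, in those introns and outside brk itself. Among protein-coding genes, 1.71% had 3 or more peaks by the rule.

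The strongest brk peak, at X 7302373 to 7302732, had its summit 5386 bp upstream and a pooled signal of 127.7, with 61.1 in replicate 1 and 71.9 in replicate 2. It is the other member peak that both replicates' lists held, with scores of 989 and 1000. A neighbour at X 7301561 to 7301920, 6198 bp upstream, had 99.9, with 57.3 and 52.0. The signals were close there, but only replicate 1's list held it, with a score of 1000 against 36.

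The peak nearest to brk was the least even between the libraries. At X 7307064 to 7307423, 695 bp upstream of the TSS, the pooled signal was 107.0, with 81.4 in replicate 1 and 26.8 in replicate 2, a ratio of 3.03. The replicate 2 peak that overlaps it had its summit 228 bp away, so the values may not belong to 1 site. Only replicate 1's list held the peak, and the conservative list did not. In replicate 1's own list brk had 5 peaks by the rule, and in replicate 2's it had 1.

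A stronger peak lay on the other side of brk. At X 7319205 to 7319300, 8101 bp beyond the end of brk and 4537 bp from the TSS of Atg5, an autophagy gene, it had a pooled signal of 201.1, with 124.3 in replicate 1 and 70.8 in replicate 2. Both replicates' lists held it. It is the strongest ranked peak within 10 kb of brk, and by the rule it belongs to Atg5.

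rho encodes an intramembrane protease that releases ligands of the epidermal growth factor receptor in the neurogenic ectoderm. The gene spans 3L 1463811 to 1468944 on the plus strand (FBgn0004635), within Ptp61F. Its peak lay at 3L 1464432 to 1464791 with the summit 801 bp downstream of the TSS, in the first intron of 1335 bp. The pooled signal was 108.2, with 39.4 in replicate 1 and 63.5 in replicate 2. Replicate 2 was 1.61-fold higher and its list alone held the peak. A weaker main-list peak of 84.2 at 3L 1477738 to 1478097, whose summit was 299 bp from the robl62A TSS, was in neither list.

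The transcription factor genes zen and dl had no peak of their own past the threshold. zen encodes a homeodomain protein that specifies the amnioserosa, and dl encodes Dorsal. zen spans 3R 6752864 to 6754194 on the minus strand (FBgn0004053) and lies beside bcd, the gene of the anterior determinant Bicoid, and Ama, the gene of an immunoglobulin-domain protein. Within 10 kb upstream of zen were 4 main-list peaks, all nearer to those neighbours.

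The strongest, at 3R 6759484 to 6759843, was 198 bp from the bcd TSS and 5470 bp from that of zen, with a pooled signal of 224.4, 100.9 in replicate 1 and 139.3 in replicate 2. Both replicates' lists held it. The next, at 3R 6762904 to 6763263 and 320 bp from the Ama TSS, had 224.0, with 156.9 and 56.1, and only replicate 1's list held it. The other 2, at 3R 6760913 to 6761272 with a signal of 121.0 and at 3R 6761118 to 6761477 with 36.0, overlap each other and were in neither list. Inside zen the strongest ranked peak had a signal of 35.5.

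dl spans 2L 17436830 to 17450364 on the minus strand (FBgn0260632). The 1 main-list peak in its window, at 2L 17429958 to 17430317, lay 6692 bp beyond its end, inside Dif, the gene of a related Rel protein of the immune response, and 432 bp from the TSS of lncRNA:CR44409. Its pooled signal was 145.4, with 98.6 in replicate 1 and 55.1 in replicate 2, and replicate 1's list alone held it. Inside dl the strongest ranked peak had a signal of 60.3, and at its promoters 33.7.

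**Figure D2:**
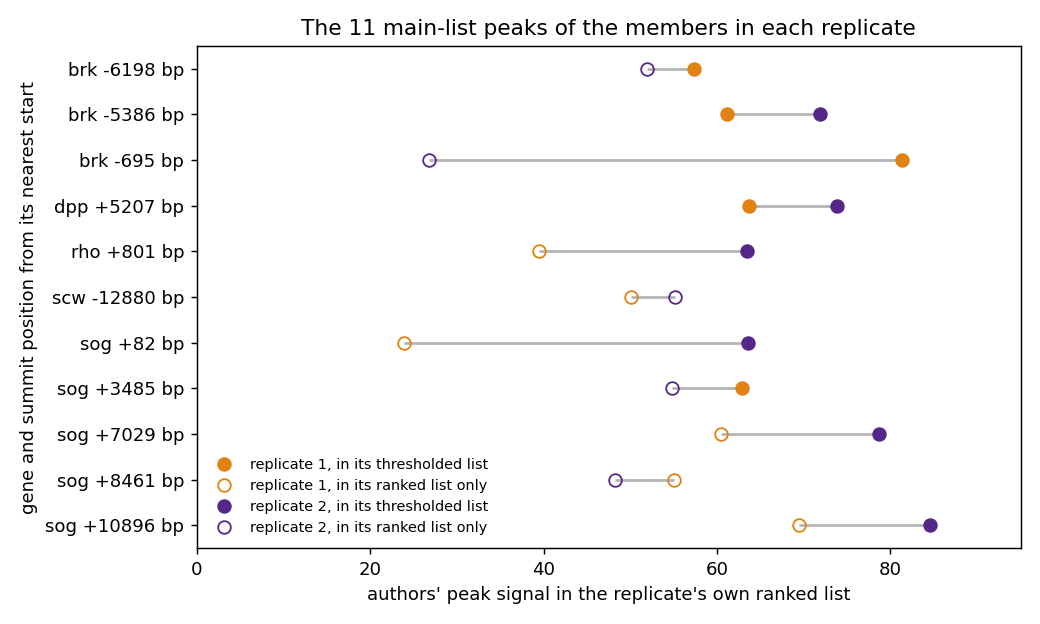
Signal of the 11 member peaks in replicate 1 and replicate 2, in the authors' units on the horizontal axis, with a row for each peak. Filled points were in that replicate's thresholded list and open points in its ranked list only. At the brk peak 695 bp upstream replicate 1 had 81.4 and replicate 2 had 26.8. At the sog promoter peak replicate 1 had 23.9 and replicate 2 had 63.6.

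Of the 11 member peaks, 2 were in both replicates' lists, 3 in that of replicate 1 only, 4 in that of replicate 2 only and 2 in neither. Among all main-list peaks 46.8% were in both, and among those with a signal in the range of the member peaks 20.2% were. All 11 overlapped a ranked peak in each replicate, as did 3366 of the 3417 main-list peaks, and 9 were in the conservative list. That list held 3172 peaks on the arms, where the main list held 3417, so most main-list peaks have a place in it. Across the 3366 main-list peaks with a ranked peak in both replicates, the log2 ratio of replicate 2 to replicate 1 had a median of 0.02 and ran from -0.83 at the 5th percentile to 0.90 at the 95th. An absolute log2 ratio of 1 or more was found in 6.21% of them, and in the sog promoter peak and the nearest brk peak among the members.

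The count of genes depends on which library is read. Replicate 1's own list, without replicate 2, gave 8 peaks in 3 genes, which were sog, dpp and brk. Replicate 2's own list, without replicate 1, gave 7 peaks in 4 genes, as rho joined them. The scw peak passed the threshold in the pooled lists and in neither replicate's own list, while each replicate's ranked list held a peak there.

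The member peaks lay farther from a TSS than the list as a whole, with no test made. Their summits had a median distance of 5386 bp to their own TSS, where all main-list summits had a median of 1026 bp to the nearest TSS. Promoters held 39.1% of all main-list summits and introns 35.2%, against 1 and 10 of the 11. Of the 11, sog had 5 and brk 3, and 4 lay in 1 sog intron, so these values rest largely on those genes. By gene, the closest summit was 82 bp from the TSS for sog, 695 for brk, 801 for rho, 5207 for dpp and 12880 for scw. A promoter summit was found in 1 of the 9 genes, sog, a share close to the 11.3% of protein-coding genes that had one. A summit inside the gene was found in 3 of the 9 (sog, dpp and rho), against 9.64%, and a summit within 10 kb in 6 of the 9, against 50.8%. Of the 3, sog and dpp are longer than 25 kb, and among genes of 25 kb or more 50.0% had a summit inside.

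The member peaks ranked from 1291 to 2909 by signal among the 3417. Of the 11, 4 were above the overall median and none was above the upper quartile of 199.7. A score of 1000 was held by 9 of them, and by 74.9% of all main-list peaks. At the promoters of the other 8 genes the strongest ranked peak had a signal between 22.2 (scw) and 42.3 (zen) and a score between 38 and 239.

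**Figure D3:**
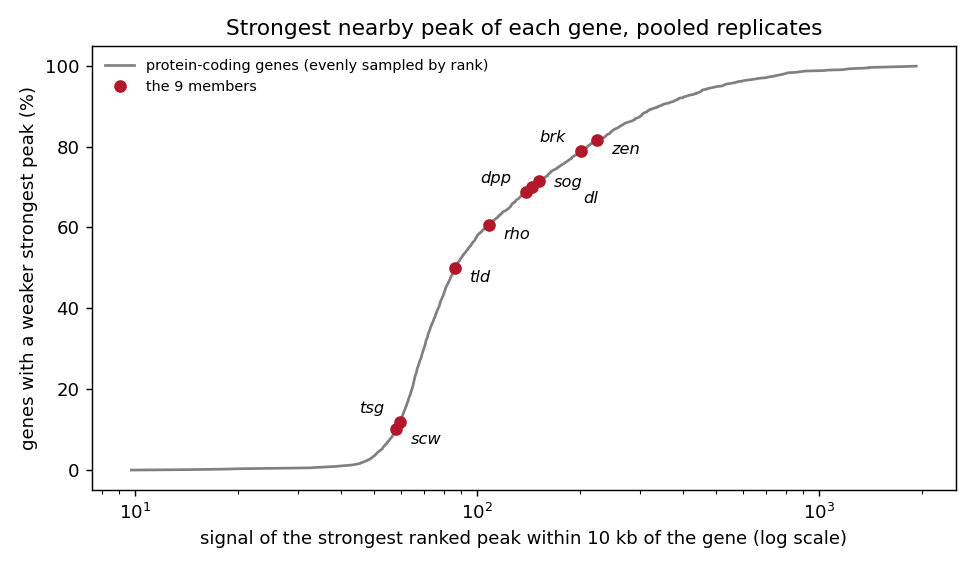
Share of protein-coding genes with a weaker strongest peak (%), against the signal of the strongest ranked peak within 10 kb of the gene on a log scale. The 9 members are spread along the curve, from scw at 58.2 to zen at 224.4, and tld at 86.4 sits at the median of all genes.

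By their strongest ranked peak within 10 kb, whichever gene it is nearest to, the 9 genes were spread over most of the range. The windows grow with gene length, from 20887 bp at tsg to 51452 bp at dpp, and no share matched for length was counted. zen had 224.4 and brk 201.1, with 81.7% and 79.0% of genes weaker. sog, dl and dpp followed at 152.1, 145.4 and 139.0, and rho at 108.2. The median over the 13652 genes with a ranked peak was 86.3, beside which tld had 86.4. tsg and scw were lowest at 59.5 and 58.2. Only in sog, dpp, tld and rho did that peak lie inside the gene.

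Within 10 kb of the 9 genes lay 335 ranked peaks, from 18 around scw and zen to 73 around dpp. The windows differ in length, and per 10 kb there were 8.34 around scw, 8.44 around zen and 14.2 around dpp. The median over protein-coding genes was 12.9. Of the 335, 19 were in the main list, 5.67%, where 2.36% of all ranked peaks on the arms were. The 335 had a median signal of 28.6, against 27.0 for all ranked peaks. Both replicates' ranked lists held a peak overlapping 251 of the 335 (74.9%). The same share over all ranked peaks was not counted, so 74.9% has no background here. Over those 251 the replicate signals correlated with a Spearman rho of 0.470 and, in log2, a Pearson r of 0.507, as a description across peaks of the same libraries. Neighbouring pooled peaks can overlap the same replicate peaks, so some pairs of values enter more than once. Main-list peaks came to 7.01 per 100 kb over the member windows and 2.55 over the arms. The arms also hold sequence outside such windows, and the density over the windows of other genes was not counted. Counted by gene, 6 of the 9 had a summit within 10 kb, against 50.8% of protein-coding genes. The 19 peaks in the member windows include peaks nearest to other genes: 4 around zen, some overlapping, and 1 each around sog, dpp, brk, rho and dl.

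Below the threshold each gene had a best-scored ranked peak in its window, and for tld, brk and scw alone it lay in the gene or nearest to its TSS. After tld, the highest was one of signal 67.4 with a score of 645 in the dl window, 53.4 with 509 for zen and 59.9 with 478 for rho. The corresponding scores were 447 for dpp, 436 for sog, 405 for brk, 317 for scw and 243 for tsg. Just inside the threshold, the lowest member peaks were sog at the promoter with 954 and brk 695 bp upstream with 975.

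The wider pathway was read from 5 further lists of 46 genes, also chosen with earlier results of these data known. Of the 46, 20 (43.5%) had a peak by the rule and 8 had one at a promoter. Among all protein-coding genes, of any length, the shares were 17.2% and 11.3%. Median gene length was 2611 bp in the Toll list and 8102 to 14069 bp in the others. No share matched for length was counted, so list and length cannot be told apart here. The Toll pathway, which sends Dorsal to the nucleus, had 2 of 13, and both were promoter peaks. They were cact, the gene of the inhibitor that holds Dorsal in the cytoplasm, with a signal of 253.2, and pll, the gene of the kinase Pelle, with 192.7. The receptor gene Tl and the ligand gene spz had none.

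Among mesoderm and midline targets 4 of 6 had a peak, 3 of them at a promoter. The strongest were in tin, a heart and mesoderm homeobox gene (360.5), stumps, an adaptor gene of fibroblast growth factor signalling (279.3), and sim, the midline regulator (198.3). twi and sna, the ventral activator and repressor genes, had none. Among neurogenic ectoderm targets 3 of 6 had one and none was at a promoter, with SoxN, a neural Sox gene, at 306.6, Dr, a dorsal-column homeobox gene, at 295.2, and vn, a ligand gene of the epidermal growth factor receptor, at 146.2.

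Among BMP receptors and transducers 6 of 11 had a peak and 1 had one at a promoter. cv-2, the gene of a secreted BMP-binding protein, had 497.0, Mad, the gene of the signal-activated Smad, had 412.8, and shn, the gene of its zinc-finger partner, had 312.9. Among amnioserosa and dorsal ectoderm targets 5 of 10 had one, led by ush, the gene of a cofactor of GATA factors, with 7 peaks and 339.3 at the strongest. Doc2, a T-box gene, had 290.0 and peb, a zinc-finger gene of the amnioserosa, had 133.7.

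**Figure D4:**
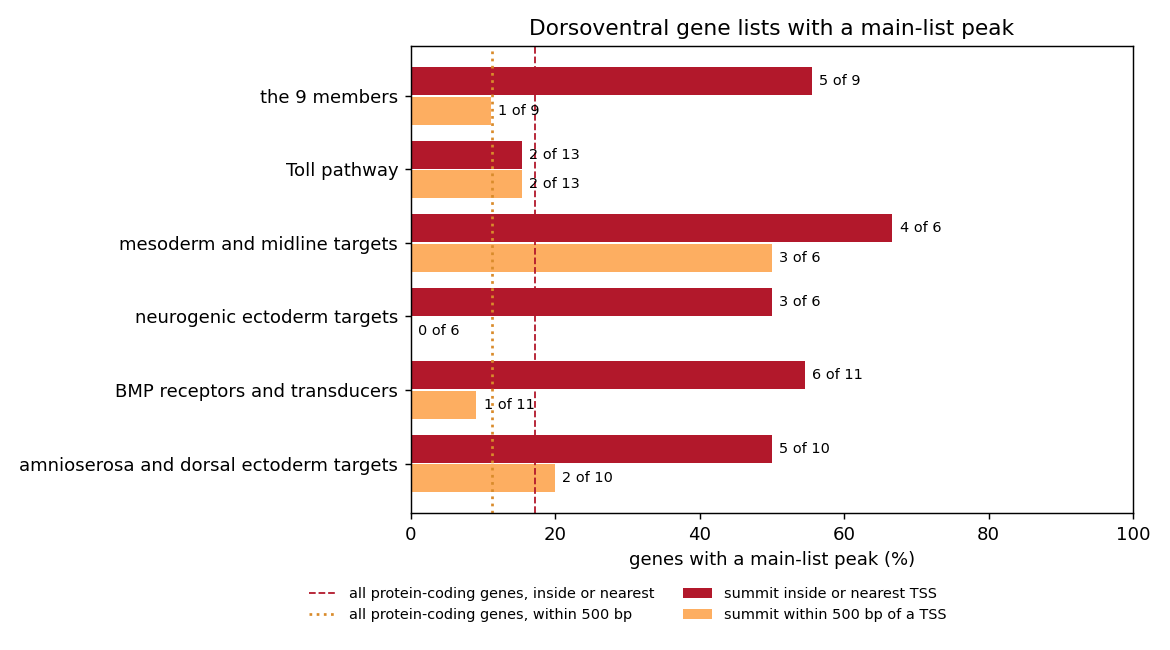
Share of genes (%) with a main-list peak by the rule, and with a summit within 500 bp of a TSS, in the 9 members and 5 wider lists, with counts beside the bars. Dashed and dotted lines mark all protein-coding genes, at 17.2% and 11.3%, and the Toll pathway's 2 of 13 is the only list below the first. The lists are not matched for gene length.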

How the data were processed

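ChIP-seq peak lists on dm6 were used as deposited. Per the file descriptions deposited with the samples, sample and control alignments went into each list. The sources used here name no aligner and no peak caller. The control library was not analysed here. The signal and the score of each peak are the authors' own deposited values. The deposited −log10 of the IDR served only to check that the score equals 125 times the log2 of 1/IDR, up to 1000, and the largest difference was 1.00. The pooled ranked lists also hold 16 columns with values of single replicates, left unused because no label names the replicate. Chromatin had been sheared to 200 to 800 bp, per the labels.

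Summits were placed on the Ensembl annotation, release 115, of the same assembly, without TSSs of transposable elements and pseudogenes. The summit lay within 5 bp of the middle of the peak in 85.7% of main-list peaks, and all 11 member peaks were 360 bp wide, the median width, so a summit says little beyond the middle. Replicate support meant an overlap of at least 1 bp. Sequences came from the RefSeq genome.

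The members and lists were chosen with earlier results of these data known. Named genes were all members, the nearest gene of each main-list peak within 10 kb, and up to 3 genes per wider list by strongest peak. Genes that hold a peak or a member in their span (Lar, CG46244, CG1677, lncRNA:CR44357, Ptp61F and Dif) fall outside that rule and were named for position. They, Tl, spz, twi and sna were chosen after their values were seen. The nearest-TSS distance, and the assignment of summits within 500 bp of a TSS or 10 kb of a gene, were tested on simulated positions. The full rule, the count of summits inside genes and the overlap between replicates were not. No test of a difference was run. Scripts ran under Python 3.11.15 with pandas 2.3.3, numpy 2.4.6, matplotlib 3.10.9 and scipy 1.17.1. Coordinates are 1-based.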

Additional observations from a re-analysis of the deposited data

How the results depend on the processing

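The conservative list gave 9 peaks in 5 genes, against 11 in 5, and with a score of 1000 only, again 9 in 5, but no gene had a promoter summit (0 in each). A promoter of 1000 bp gave 3 genes with a promoter summit, and one of 200 bp gave 1. Leaving out 1 replicate gave 7 to 8 peaks in 3 to 4 genes. Counting summits inside the gene only gave 7 peaks in 3 genes. Member peaks with an overlap in both replicates numbered 2 in the thresholded lists and 11 in the ranked lists. In the ranked lists 3366 of all 3417 main-list peaks had such an overlap, so the 11 say little. With peaks within 10 kb only, an alternative chosen after seeing the data, there were 10 in 4 genes. The other alternatives left each count within 1.5 times of its value. No paired analysis was possible because there is 1 group. Depth is unknown, and with 2 replicates of 1 strain, binding by the fusion protein and signal that any GFP pull-down would give cannot be told apart.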
